A study of Mus musculus with 384 samples.

Results

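Mpo, Elane, Prtn3 and Ctsg encode proteins that neutrophil precursors store in their earliest granules, and Fcnb encodes a lectin made by myeloid precursors. The rows of these 5 genes were read from a single-cell table of 23420 mouse genes. The genes were chosen by name, for their role, and all 5 had values above 0 in at least 2 cells. The cells came from spinal cords of Optn KO mice, in which optineurin, an autophagy receptor, is knocked out. All cells share this genotype, and no cell without the knockout was analysed here, so the effect of the knockout was not measured. Cords were dissociated with Accutase and cleared of myelin, and cells stained for the leukocyte antigen CD45, the myeloid integrin CD11b and the fractalkine receptor CX3CR1 were sorted singly into plates. Libraries followed SmartSeq2, which copies whole transcripts and tags no molecules. The labels list 384 cells on 4 plates, of which 326 have values. Plates 1 and 2 form replicate 1 (154 cells), and plates 3 and 4 form replicate 2 (172 cells). The labels do not say whether the replicates are separate mice or cell pools, nor the animals' age or how Optn was disrupted.

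The values are TPM, a gene's length-corrected share of a cell's transcripts, scaled to sum to 1000000 in each cell. They keep no sequencing depth, so the number of genes above 0 stood in for it, with a median of 1681 per cell and a range from 675 to 5707. Optn was listed at 0 in all 326 cells, which allows a share of up to 0.920% (3 counts of the total, counting error only). The series title calls the cells microglia, but 0 of the 326 cells held 3 or more of 13 microglial markers. By marker genes 290 cells were neutrophil-like (clusters 1, 2, 3, 5 and 6) and 36 were monocyte-like (cluster 4). The monocyte-like cluster was mixed: 29 of its cells held 3 or more monocyte markers, 4 held 3 or more B cell markers, 3 held 3 or more T or NK cell markers and 1 held 6 of 7 mast cell or basophil markers.

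Neutrophils fill their granules in sequence as they mature in the bone marrow. Azurophil granules come first, at the promyelocyte stage, when the cells still divide. Mpo, the haem peroxidase that makes hypochlorous acid, and the serine proteases Elane (neutrophil elastase), Prtn3 (proteinase 3) and Ctsg (cathepsin G) are made at that stage, and their transcripts are lost before the cells leave the marrow. Specific granules follow with Camp (the cathelicidin precursor) and Ltf (lactoferrin), and gelatinase granules with Mmp9 and Mmp8 come last. Fcnb, ficolin-B, is a lectin that recognises microbial sugars and is made by myeloid precursors in the mouse. Monocyte precursors share the early azurophil program for a time, and Ccr2, the chemokine receptor that brings monocytes out of the marrow, marks that lineage. Mki67 marks dividing cells.

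In the GENCODE vM21 annotation of GRCm38, Prtn3 (chr10:79874476-79883174, plus strand) and Elane (chr10:79886247-79888215, plus strand) are neighbours with 3072 bases between them. Cfd, complement factor D (chr10:79890853-79892655, plus strand), lies 2637 bases after Elane. The related protease Prss57 (chr10:79781474-79790961, minus strand) lies farther off, before Prtn3. Mpo lies at chr11:87793581-87804413 on the plus strand, Ctsg at chr14:56099881-56102574 on the minus strand and Fcnb at chr2:28076378-28084885 on the minus strand. The bases before the RefSeq start sites of the 4 azurophil genes, which few cells held, are shown beside those of Fcnb, which was held more widely. The sequences are from RefSeq (GRCm38.p6), and all 5 genes had an entry. They were taken from the 250 bases before the start, read in the direction of the gene, and leave out bases that GENCODE counts as untranslated. They span chr11:87793534-87793580 for Mpo, chr10:79886062-79886246 for Elane, chr10:79879417-79879613 for Prtn3, chr14:56102575-56102824 for Ctsg and chr2:28084886-28085128 for Fcnb. The Prtn3 stretch lies inside the GENCODE span given above, so the RefSeq start used for Prtn3 is not its GENCODE gene start. Capitals mark matches, on either strand, to GAGGAA (a form of PU.1 and other ETS factor sites), TTNNGCAA (C/EBP factors), TAACNG (Myb) and TATAAA (the TATA box).
Mpo: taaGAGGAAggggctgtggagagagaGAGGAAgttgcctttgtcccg
Elane: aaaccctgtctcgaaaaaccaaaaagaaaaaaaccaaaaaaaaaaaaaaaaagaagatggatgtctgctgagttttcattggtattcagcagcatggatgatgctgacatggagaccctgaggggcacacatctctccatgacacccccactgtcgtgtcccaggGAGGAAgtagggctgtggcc
Prtn3: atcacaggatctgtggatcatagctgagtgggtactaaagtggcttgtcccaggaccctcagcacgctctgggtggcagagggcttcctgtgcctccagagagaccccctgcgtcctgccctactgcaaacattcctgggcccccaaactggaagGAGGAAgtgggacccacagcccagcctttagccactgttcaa
Ctsg: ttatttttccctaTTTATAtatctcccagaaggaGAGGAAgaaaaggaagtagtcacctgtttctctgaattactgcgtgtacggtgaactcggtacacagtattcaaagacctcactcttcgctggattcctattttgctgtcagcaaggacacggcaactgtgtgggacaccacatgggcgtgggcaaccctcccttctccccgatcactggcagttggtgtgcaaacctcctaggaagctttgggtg
Fcnb: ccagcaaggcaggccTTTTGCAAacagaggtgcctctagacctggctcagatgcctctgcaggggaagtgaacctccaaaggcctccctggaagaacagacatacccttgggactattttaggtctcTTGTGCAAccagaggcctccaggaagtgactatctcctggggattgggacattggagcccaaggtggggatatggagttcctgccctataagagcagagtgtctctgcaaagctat

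GAGGAA was present in the 250-base windows of all 4 azurophil genes and absent from that of Fcnb. Other forms of ETS factor sites were not searched for, and the shorter GGAA does occur in the printed Fcnb sequence. The first base of GAGGAA lay 247 and 224 bases before the start in Mpo, 85 in Elane, 95 in Prtn3 and 216 in Ctsg. Of 32851 mouse promoter windows of the same length, 23.3% held GAGGAA. TTNNGCAA occurred in Fcnb alone among the 5, at 235 and 123 bases before the start, and 9.56% of all windows held it. TAACNG matched in Mpo (166 bases before the start) and on the opposite strand in Elane (20 bases before), both in the stretch that is not printed, and 19.8% of all windows held it. TATAAA matched on the opposite strand in Ctsg, 237 bases before the start, against 12.4% of all windows. No matches overlapped. A match describes the letters and is not a bound site.

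Fcnb was held by many more cells than the azurophil genes were. It was above 0 in 44 of 326 cells, 13.5% (exact 95% binomial interval 9.98% to 17.7%). Prtn3 was above 0 in 16 cells (4.91%, 2.83% to 7.85%), Elane in 9 (2.76%, 1.27% to 5.18%), Ctsg in 5 (1.53%, 0.50% to 3.54%) and Mpo in 2 (0.613%, 0.0744% to 2.20%). Any of the 4 azurophil genes was above 0 in 19 cells, 5.83% (3.55% to 8.95%). The counts did not change with a minimum of 1 or 10 TPM, since the lowest value above 0 of any of the 5 genes was 25.3 TPM. These intervals cover counting error only, and a cell at 0 may hold the transcript below detection.

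By plate, the share of cells with Fcnb was 11.7%, 16.9%, 12.9% and 12.6% on plates 1 to 4. The 4 shares overlapped widely in their intervals, and both replicates had 22 such cells. Cells with an azurophil gene numbered 7 of 77 on plate 1, 7 of 77 on plate 2, 3 of 85 on plate 3 and 2 of 87 on plate 4. Both plates of replicate 1 were therefore at 9.09%, above the 3.53% and 2.30% of replicate 2, with 2 replicates and no test. Replicate 1 also had the higher median of genes above 0 per cell, 1761.5 against 1565, and the part of that difference in the counts was not tested. Mpo was held only on plates 1 and 2, by 1 cell each, and 0 of 172 cells in replicate 2 allow a share of up to 1.74% by the limit of 3 counts (2.12% by the exact interval).

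**Figure D1:**
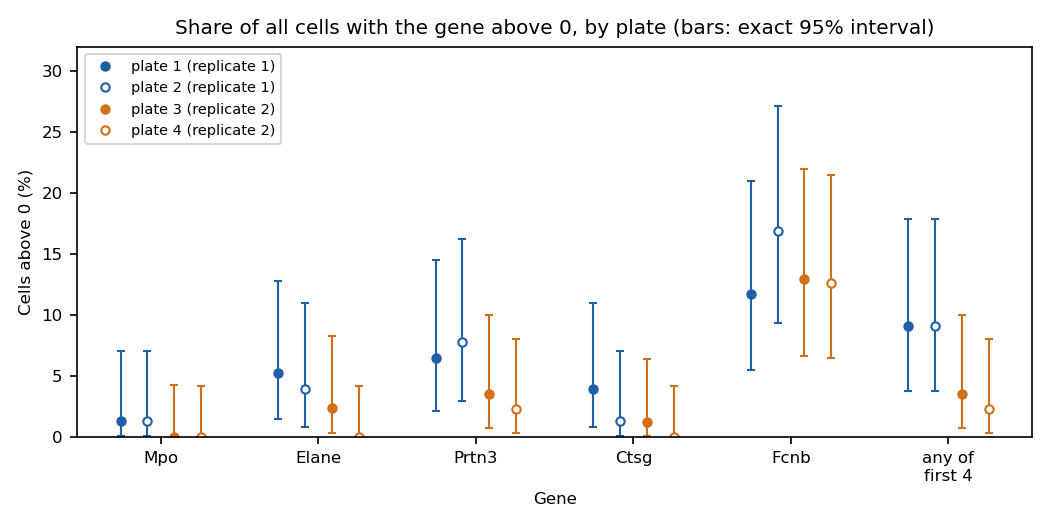
Percent of all cells with each gene above 0 (vertical axis) on each of the 4 plates, with exact 95% binomial intervals; filled and open symbols are the plates of a replicate, and the last group is any of Mpo, Elane, Prtn3 and Ctsg. Fcnb stands at 11.7% to 16.9% on every plate, while the azurophil genes are at 9.09% on both plates of replicate 1 and at 3.53% and 2.30% on those of replicate 2.

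Mean levels over all cells of a replicate did not separate the genes. Elane averaged 230 ± 303 TPM (SD, n = 2 replicates, as for the other means), Fcnb 210 ± 53.6, Prtn3 143 ± 190, Mpo 111 ± 157 and Ctsg 49.6 ± 69.6 TPM. Each neighbour in that order lay within the spread of the next, and Fcnb was the steadiest, at 248 TPM in replicate 1 and 172 TPM in replicate 2. The means of the 4 azurophil genes rest on a few cells. Among the cells above 0, the median was 724 TPM for Elane, 199 TPM for Prtn3 and 1385 TPM for Ctsg. That of Fcnb was 1036 TPM, with a range from 44.7 to 4919 TPM.

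In the neutrophil-like cells, Fcnb was above 0 in 38 of 290 cells, 19 in each replicate, and averaged 227 ± 59.9 TPM. Elane averaged 197 ± 268, Prtn3 147 ± 201, Mpo 119 ± 169 and Ctsg 44.0 ± 62.3 TPM there. In the monocyte-like cells Elane averaged 468 ± 515, Prtn3 128 ± 107, Ctsg 87.6 ± 118, Fcnb 74.0 ± 38.8 and Mpo 54.1 ± 76.5 TPM. The order of the genes thus differed between the classes, but within each class every neighbouring pair lay within its spread. Fcnb was above 0 in a like share of both classes, 13.1% (9.44% to 17.5%) of the neutrophil-like and 16.7% (6.37% to 32.8%) of the monocyte-like cells. The azurophil genes were in 8 of 290 neutrophil-like cells, 2.76% (1.20% to 5.36%), and in 11 of 36 monocyte-like cells, 30.6% (16.3% to 48.1%). The monocyte-like cells also had more genes above 0, a median of 3140.5 against 1575.5.

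Within the neutrophil-like cells the genes were concentrated in cluster 6. It held Fcnb in 24 of its 25 cells, Prtn3 in 7, Elane in 5 and Mpo and Ctsg in 1. Fcnb was also above 0 in 9 of 83 cells of cluster 2 and 5 of 26 of cluster 5, and in none of the 85 cells of cluster 1 or the 71 of cluster 3. Cluster 6 had Mki67 above 0 in 18 of 25 cells and Camp in all 25, at 45245 ± 622 TPM. In cluster 3, by contrast, Camp averaged 15.7 ± 19.4 TPM and Mki67 was in 2 of 71 cells. The clusters were made from all variable genes, so these counts say where the genes lie and are no test.

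**Figure D2:**
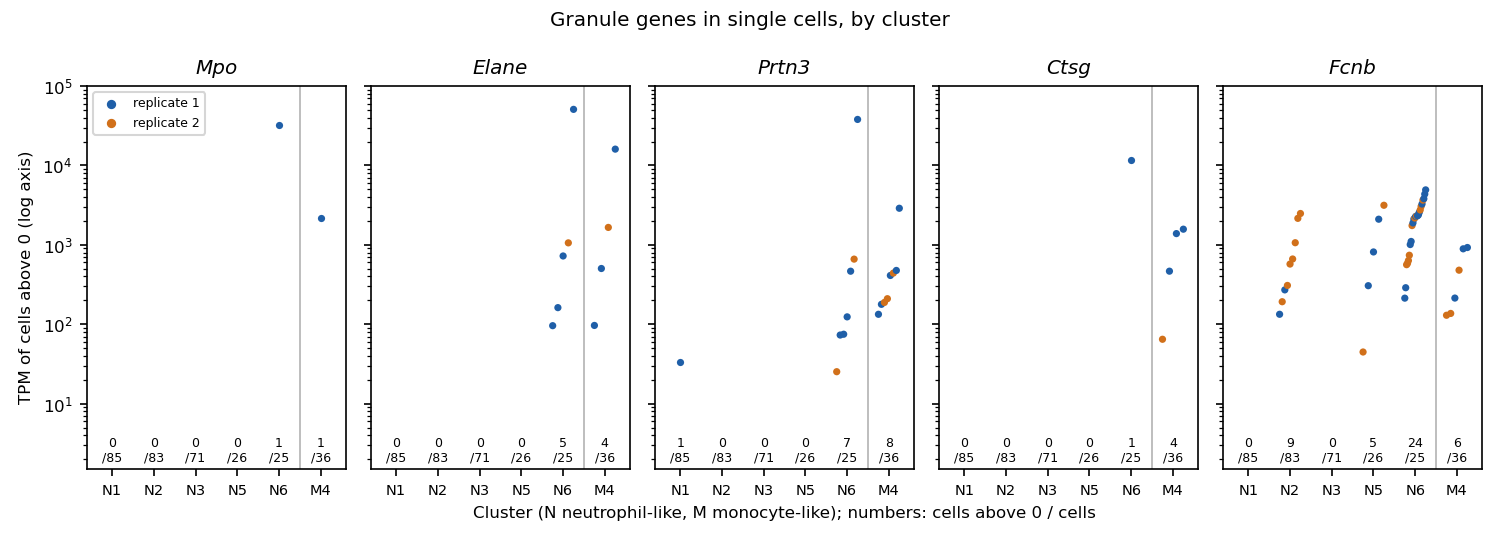
TPM of each cell above 0 (vertical log axis) for the 5 genes, by cluster (N, neutrophil-like; M, monocyte-like) and coloured by replicate; the numbers give cells above 0 over cells in the cluster. Fcnb fills cluster N6 (24 of 25 cells) and the azurophil genes lie in N6 and in M4, with 1 Prtn3 cell in N1.

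The cell with the highest Elane value stood apart from every other. It lay on plate 2 in cluster 6, with 4686 genes above 0. It held 50794 TPM of Elane, 37928 of Prtn3, 31987 of Mpo, 11799 of Ctsg and 4919 of Fcnb, the highest value of each in the series. The 4 azurophil genes followed directly after Rn45s, the ribosomal RNA precursor, in the order of its most abundant transcripts, and took 13.3% of its TPM. This cell alone held 80.4% of all azurophil TPM in the 326 cells. Its specific granule genes were low for a neutrophil-like cell with Fcnb: 175 TPM of Camp, 11.8 of Ngp (neutrophilic granule protein) and 4.73 of Ltf. Camp and Ltf were not low for the whole class. The 234 neutrophil-like cells with neither Fcnb nor Mki67 had medians of 19.8 TPM of Camp, 2.85 of Ltf and 6160 of Ngp. The highest cell held genes known from granulocyte progenitors: 260 TPM of Myb and 88.2 of Gfi1 (transcription factors), 103 of Kit (the stem cell factor receptor), 318 of Prss57 and 2777 of Ms4a3, a membrane protein of granulocyte-monocyte progenitors. It also held 252 TPM of Cebpe, the factor that drives specific granule genes, 58.9 of Mki67 and, alone in the series, Lpo (lactoperoxidase, 13.3 TPM).

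The other 7 neutrophil-like cells with an azurophil gene were far lower. In 6 cells of cluster 6, Prtn3 was at 25.3, 73.1, 74.8, 124, 465 and 661 TPM. Of these cells 4 also held Elane, at 95.9, 162, 724 and 1059 TPM, and none held Mpo or Ctsg. Fcnb was above 0 in all 6, from 1747 to 3809 TPM, as was Mki67, from 79.3 to 441 TPM. Camp ranged in them from 5808 to 73927 TPM, so azurophil and specific granule transcripts were present in the same cells. The remaining cell lay in cluster 1 and held Prtn3 alone, at 33.0 TPM, with Camp at 14062 TPM and neither Fcnb nor Mki67. Ccr2 and Ctsc were at 0 in all 8 cells. Ctsc, cathepsin C, trims the azurophil serine proteases to their active form.

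In the monocyte-like cells the azurophil genes kept other company. The highest cell lay on plate 1 and had 5707 genes above 0, the most of any cell. It held 16034 TPM of Elane, 2888 of Prtn3, 2163 of Mpo, 1574 of Ctsg and 891 of Fcnb, with 289 TPM of Ccr2, 10657 of Ly6c2 (a surface antigen of inflammatory monocytes) and 131 of Irf8 (a monocyte lineage factor). It held 8 of 10 monocyte and 4 of 10 neutrophil markers, and Camp was at 0. Ly6c2 was also above 0 in all 8 neutrophil-like cells with an azurophil gene, from 403 to 5269 TPM. Holding it did not mark the monocyte-like cells alone. A cell on plate 3 held 1656 TPM of Elane, 441 of Prtn3, 64.7 of Ctsg and 130 of Fcnb. Of the 9 others, Prtn3 was in 6, from 133 to 476 TPM, and Elane in 2, at 96.6 and 503 TPM. Ctsg was at 466 TPM in 1 of the Prtn3 cells. The last cell held Ctsg alone, at 1385 TPM, and carried 6 of 7 mast cell or basophil markers, among them 12360 TPM of Mcpt8 and 6757 of Fcer1a. It held neither Ccr2 nor Ly6c2, and of the 10 monocyte markers only F13a1 (coagulation factor XIII), at 17.4 TPM.

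Ccr2 was above 0 in 10 of the 11 monocyte-like cells with an azurophil gene, and in 18 of the other 25. The 2 groups differed in kind: 3 or more monocyte markers were in 10 of the 11 and in 19 of the 25. All 4 cells with 3 or more B cell markers were among the 25. Those with 3 or more T or NK cell markers numbered 1 among the 11 and 2 among the 25. These counts thus partly set monocyte-like cells against cells with lymphocyte markers. Ctsc was above 0 in all 11 and in 21 of the other 25. Camp was at 0 in all 11. Mki67 was above 0 in 8 of the 11, from 72.6 to 384 TPM, and in 5 of the other 25. Over both classes, every one of the 9 cells with Elane had Mki67 above 0, and Mki67 was in 15 of the 19 cells with any azurophil gene. The 11 cells had more genes above 0 than the other 25, a median of 3738 against 2726, and the 8 neutrophil-like ones more than the other 282, 3606.5 against 1564.5. The part of that difference in these counts was not tested.

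**Figure D3:**
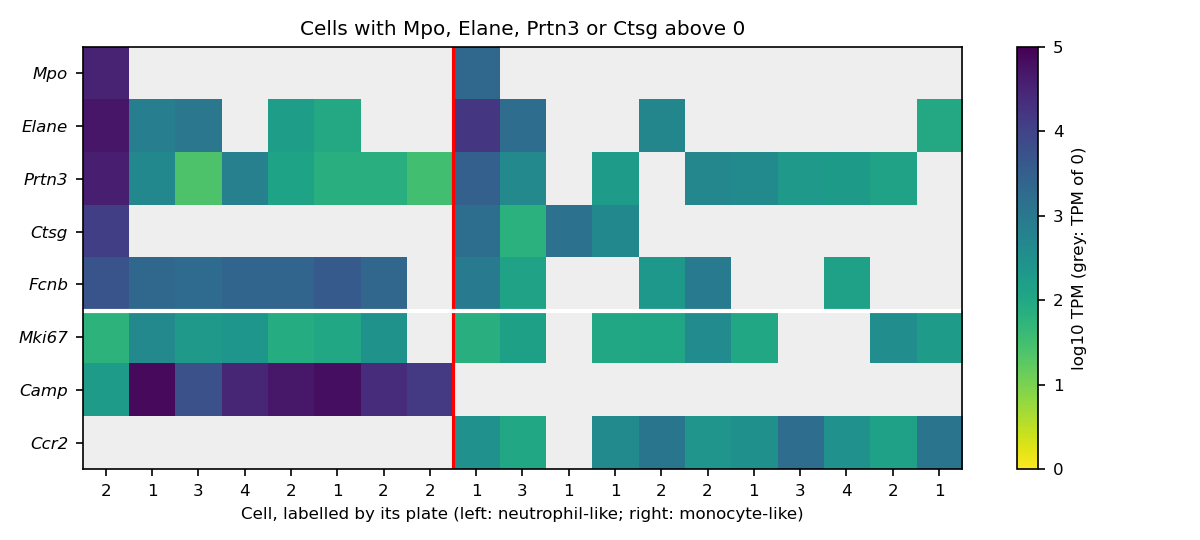
log10 TPM of the 5 genes and of Mki67, Camp and Ccr2 (rows) in the 19 cells with an azurophil gene (columns, labelled by plate), with neutrophil-like cells left of the red line and monocyte-like cells right of it; grey is a TPM of 0. Camp is above 0 in all 8 cells on the left and in none of the 11 on the right, and Ccr2 is above 0 in none on the left and in 10 on the right.

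Most cells with an azurophil gene held only 1 of the 4. Of the 19 cells, 11 held 1, 5 held 2, 1 held 3 and 2 held all 4. Fcnb was above 0 in 8 of the 9 cells with Elane and in 11 of the 16 with Prtn3, while most cells with Fcnb held no azurophil gene. Of the 38 neutrophil-like cells with Fcnb, 31 held none of the azurophil genes, and 251 cells held none of the 5. Both cells with Mpo held Elane, Prtn3, Ctsg and Fcnb too. Of the 6 monocyte-like cells with Fcnb, 5 held an azurophil gene. Genes of the same region did not all share the pattern: Cfd was at 0 in all 326 cells, while Prss57, which lies farther off, was above 0 in 29. Of the related peroxidases and proteases, Epx and Cma1 were at 0 in every cell, Mcpt8 and Lpo were in 1 cell and Gzmb in 2. Among the partners of ficolins, Fcna and Masp1 were at 0 in every cell and Masp2 was in 1. A count of 0 in 326 cells allows a share of up to 0.920%.

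Neutrophil-like cells with Fcnb were then set against those without it, to see which other genes went with ficolin-B. Values were averaged over the cells of each class in each replicate, 19 against 115 cells in replicate 1 and 19 against 137 in replicate 2, and compared with limma on log2(mean TPM + 1) with the replicate as a block. Of 4056 genes tested, 4.56% were higher (185) and 14.9% were lower (604) at an adjusted p under 0.05. Fcnb alone of the 5 genes passed the filter on low values, and the other 4 were kept in the fit in any case. The fit has 1 residual degree of freedom, so its p-values lean on the spread that limma pools over genes. Cells with Fcnb had more genes above 0, a median of 2683 against 1573 in replicate 1 and 2385 against 1512 in replicate 2.

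Elane was above 0 in 5 of the 38 cells with Fcnb and listed at 0 in all 252 without it. It averaged 2725 TPM with Fcnb in replicate 1 and 55.7 TPM in replicate 2, where 1 cell of plate 3 held it and none of plate 4 (adjusted p = 0.00648, limma). Prtn3 averaged 2035 against 0.287 TPM in replicate 1 and 36.1 against 0 TPM in replicate 2 (log2 difference 7.92 ± 1.23 SE, adjusted p = 0.00829, limma). Replicate 1 was far above replicate 2 because of the highest cell: without it Elane averaged 54.5 TPM and Prtn3 41.0 TPM there, with adjusted p of 0.00485 and 0.00664 (limma). Neither gene passed the filter on low values, and both were compared with a class at or near 0, so these p-values rest on few cells: in replicate 2, 1 with Elane and 2 with Prtn3. Both calls were lost with a pseudocount of 10 (adjusted p = 0.333 and 0.364, limma) and with no filter on low values (0.297 and 0.303). Mpo and Ctsg were above 0 in the highest cell only, at class means of 1684 and 621 TPM in replicate 1, and did not pass (adjusted p = 0.140 and 0.145, limma).

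Mki67 was higher in the cells with Fcnb, on 4 of 4 plates. It averaged 65.0 TPM with Fcnb and 3.40 TPM without it in replicate 1, and 66.4 against 0.950 TPM in replicate 2. The log2 difference was 4.51 ± 0.72 SE (adjusted p = 0.00886, limma). Without Fcnb, Mki67 lay below the filter's mean of 5 TPM in both replicates. It passed the filter only through the cells with Fcnb, so its rise is a description. Among cells matched on genes above 0 its difference was 4.10 and no longer passed (adjusted p = 0.0807, limma). Camp rose as well, at 44364 against 9514 TPM and 42025 against 8714 TPM (2.25 ± 0.07 SE, adjusted p = 2.56e-05, limma). Ccr2 stayed below 1 TPM in both classes of both replicates (adjusted p = 0.885, limma). By cell, Mki67 was above 0 in 19 of the 38 cells with Fcnb and in 18 of the 252 without. Camp was above 0 in all 38 and in 144 of the 252.

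Of the 8 neutrophil-like cells with an azurophil gene, 7 had both Fcnb and Mki67 and 1, with Prtn3, was among the 234 with neither. Of the 19 cells with both genes, 7 held Prtn3 and 5 held Elane, and their median was 2967 genes above 0. Of the 19 cells with Fcnb and no Mki67, none held any of the 4, with Camp at a mean of 45200 TPM and a lower median of 2303 genes above 0. None of the 18 cells with Mki67 and no Fcnb held any of the 4 either, with a median of 1936.5 genes above 0. The part of this difference in genes detected was not tested. Of the 18 cells with Mki67 and no Fcnb, 1 lay in cluster 6, against 17 of the 19 with both genes. Mki67 averaged 108 TPM over all cells of cluster 6 and 1.60 TPM or less over those of each other neutrophil-like cluster. Mki67 above 0 thus did not mean a like level in both groups. Of these 18 cells, 16 held Retnlg (a secreted protein of mature neutrophils), at a mean of 18101 TPM, against 7 cells and 242 TPM among those with Fcnb and Mki67. Ms4a3 was above 0 in 11 of the 19 cells with both genes, in 6 of the 19 with Fcnb alone and in none of the 252 without Fcnb.

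**Figure D4:**
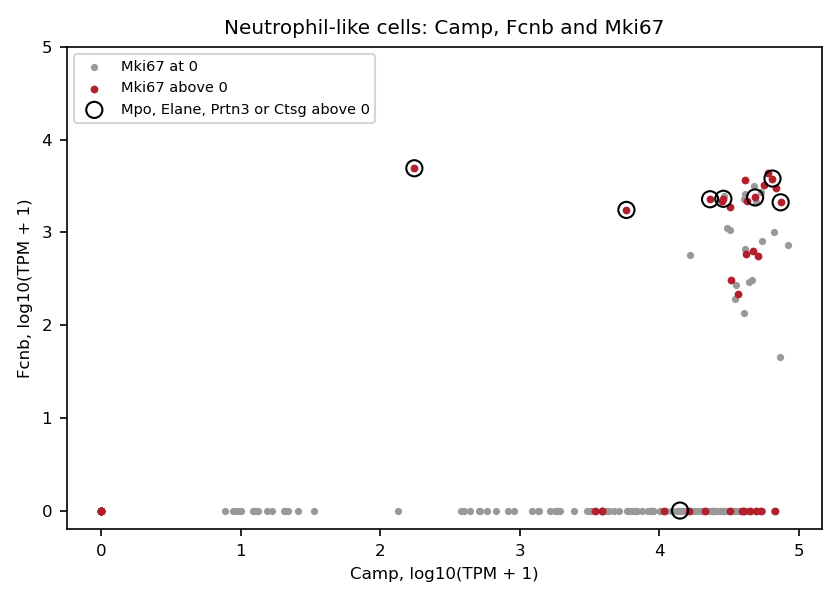
Fcnb against Camp, both as log10(TPM + 1), in the 290 neutrophil-like cells; red points have Mki67 above 0 and rings mark the 8 cells with Mpo, Elane, Prtn3 or Ctsg above 0. All but 1 of the 38 cells with Fcnb lie at the high end of Camp, and the exception, at 175 TPM of Camp, is the cell with the highest azurophil values.

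Of the azurophil packing and processing genes, 6 of 12 were tested against Fcnb, of which 4 rose and 1 fell. Among those that rose were Serpinb1a (an inhibitor of elastase and cathepsin G, 1.92 ± 0.22 SE on the log2 scale), Cd63 (a granule membrane protein, 0.86 ± 0.22) and Lyz2 (lysozyme, 0.40 ± 0.07). Srgn, serglycin, the proteoglycan that retains proteases in granules, fell by 4.77 ± 0.23 on that scale. Ctsc was above 0 in 9 of the 290 neutrophil-like cells, too few for the filter, and in none of the 38 with Fcnb. The list's median was 0.78, against -0.36 over all genes tested.

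Genes of specific granules rose and those of later stages fell. Of 10 specific granule genes tested, 8 rose and none fell (median 1.24 on the log2 scale), among them Ngp (1.77 ± 0.05 SE), Ltf (1.37 ± 0.09) and Chi3l3 (3.01 ± 0.11, a chitinase-like protein with near-identical copies, so its reads may be split between them). All 8 gelatinase and late genes fell (median -4.24), among them Mmp9, gelatinase B, by 2.85 ± 0.20, Cxcr2, a chemokine receptor of mature neutrophils, by 4.02 ± 0.34, and Retnlg by 4.76 ± 0.18. Il1b, also among these late genes, passed the filter only through the cells without Fcnb. Proliferation genes rose in 6 of 6 tested out of 18 listed (median 4.56). The filter took both classes together, so a gene near 0 without Fcnb could be tested only if the cells with Fcnb held it. The count of 6 of 6 is therefore no measure of the whole list. Of 5 early progenitor genes tested, only Hmgn2, a chromatin protein, rose (1.75 ± 0.11), and Kit did not pass (0.45 ± 0.74, adjusted p = 0.706, limma). Of 3 transcription factors tested, only Cebpe rose (2.52 ± 0.44).

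**Figure D5:**
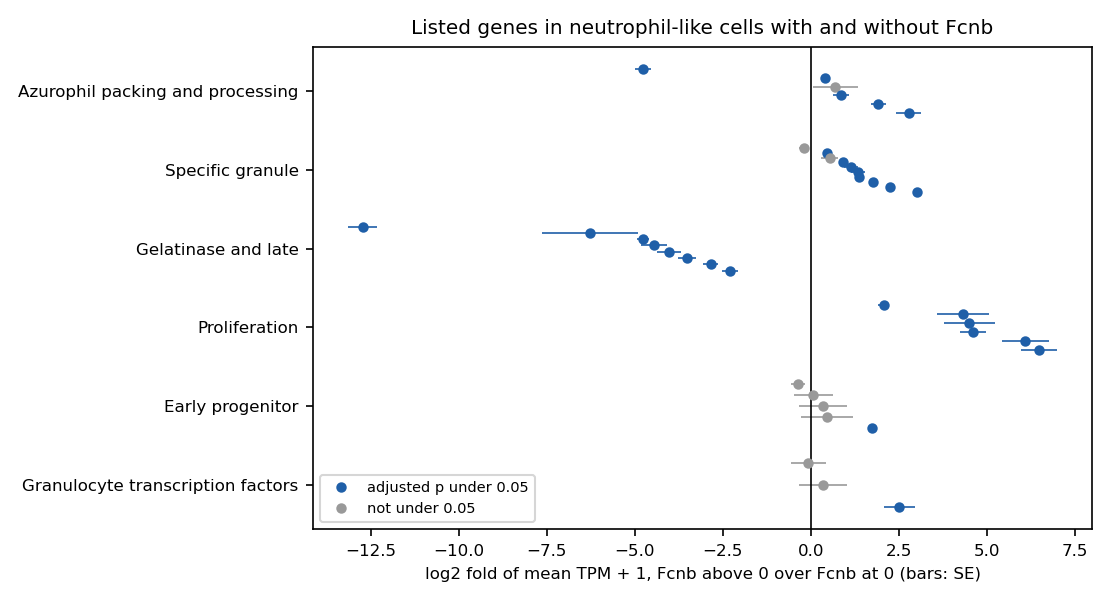
log2 difference of mean TPM + 1 (horizontal axis, bars SE) between neutrophil-like cells with and without Fcnb for the listed genes that were tested, with those at an adjusted p under 0.05 in blue. All 8 gelatinase and late genes lie left of 0, and the 6 proliferation genes and 8 of 10 specific granule genes lie right of 0 in blue.

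Of all genes past the threshold with the same sign on all plates, those with the largest rise were Ube2c (6.48 ± 0.50 SE on the log2 scale), Birc5 (6.09 ± 0.66), Prc1 (5.44 ± 0.70), Dlgap5 (4.79 ± 0.78), Hist1h2ao (4.73 ± 0.38), Tuba1b (4.61 ± 0.37), Ptma (4.56 ± 0.40) and Tubb5 (4.53 ± 0.40). Ube2c, Birc5, Prc1 and Dlgap5 act in mitosis, Tuba1b and Tubb5 are tubulins, and Hist1h2ao is a histone gene with near-identical copies, so its level is uncertain. Without Fcnb, replicates 1 and 2 averaged 3.84 and 0.423 TPM of Birc5, 1.24 and 0.118 of Prc1, and 0.142 and 0.188 of Dlgap5. These 3 genes passed the filter only through the cells with Fcnb, so their rise is a description. Hist1h2ao, Tuba1b, Ptma and Tubb5 averaged 18.4 TPM or more without Fcnb, and Ube2c 9.48 and 1.23 TPM. Il1b, the inflammatory cytokine, fell most, averaging 0.378 TPM with Fcnb and 7602 TPM without it in replicate 1, and 0 against 8332 TPM in replicate 2. Clec4d, a C-type lectin receptor, fell by 9.80 ± 0.54 and Pla2g7, a phospholipase, by 9.27 ± 0.57. With Fcnb, replicates 1 and 2 averaged 0 and 0.185 TPM of Clec4d, and 0 and 0.0474 of Pla2g7. Cd300ld, a myeloid receptor, was listed at 0 in every cell with Fcnb. Il1b, Clec4d, Pla2g7 and Cd300ld passed the filter only through the cells without Fcnb. Their falls are therefore descriptions, and the size of these differences depends on the pseudocount.

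Cells with and without Mki67 were compared in the same way, 17 against 117 in replicate 1 and 20 against 136 in replicate 2, and 0.0% of 4056 genes passed in either direction. An unadjusted p under 0.05 was reached by 654 genes (limma), and no other tool was run. Fcnb was 1483 against 93.3 TPM in replicate 1 and 859 against 85.7 TPM in replicate 2, a log2 difference of 3.64 ± 0.33 SE that missed the threshold (adjusted p = 0.0898, limma) and was positive on 4 of 4 plates. It passed in 7 of 13 alternatives with a p, whose adjusted p ranged from 3.05e-10 to 0.624. Elane was at 3046 and 52.9 TPM in the cells with Mki67, whose lowest Mki67 value was 0.29 TPM, and listed at 0 in all others (adjusted p = 0.169, limma). Prtn3 was at 2274 against 0.282 TPM and 34.3 against 0 TPM (adjusted p = 0.169, limma). Without the highest cell, Elane averaged 61.3 TPM and Prtn3 46.1 TPM in the cells with Mki67 of replicate 1. Mpo and Ctsg were at 0 in replicate 2. Cells with Mki67 had a median of 2575 genes above 0 against 1577 in replicate 1, and 2021.5 against 1513.5 in replicate 2.

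Cells at or above the median Camp of their plate were compared with those below it, 67 against 67 in replicate 1 and 78 against 78 in replicate 2. Of 4056 genes tested, 6.71% were higher (272) and 15.1% lower (614). Fcnb was above 0 in 37 of 145 cells on the high side and in 1 of 145 on the low side, and that 1 was the cell with the highest azurophil values. Its mean was 466 against 73.4 TPM in replicate 1 and 370 against 0 TPM in replicate 2, and the difference did not pass (5.59 ± 2.55 SE, adjusted p = 0.398, limma). The azurophil genes were in 7 cells on the high side and in the same 1 on the low side. The difference was -0.87 ± 4.23 for Elane and -1.11 ± 3.80 for Prtn3 (adjusted p = 0.927 and 0.894, limma). Without that cell all 5 genes were listed at 0 on the low side, so its removal fixes the direction, and no test is drawn from it.

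Mki67 was higher on the high Camp side. It averaged 22.2 TPM on the high and 2.05 TPM on the low side in replicate 1, and 16.6 against 1.22 TPM in replicate 2. The difference was 2.96 ± 0.76 SE (adjusted p = 0.00945, limma). On the low side Mki67 lay below the filter's mean of 5 TPM in both replicates. It passed the filter only through the high side, so its rise is a description. The high side had more genes above 0, a median of 1981 against 1463 and 1940 against 1400, and among cells matched on that number Mki67 did not pass (adjusted p = 0.147, limma). Of all genes that passed, the largest rises were in Orm1 (an acute phase protein, 6.33 ± 0.65 SE), Inhba (a subunit of activin, 6.22 ± 0.65), Ffar2 (a short-chain fatty acid receptor, 5.68 ± 0.72), Mlst8 (a subunit of the mTOR complexes, 5.53 ± 0.73), Slc39a11 (a zinc transporter, 5.33 ± 0.74) and Sh3bgrl (5.13 ± 0.76), and in Rasl11b and Ica1, both listed at 0 on the low side. The largest falls were in Atf3, a stress-induced transcription factor listed at 0 on the high side, St3gal6, a sialyltransferase (-6.93 ± 0.68), LOC100038947 (-6.59 ± 0.74) and Egr1, an immediate early transcription factor (-6.53 ± 0.43). Of the listed genes, 6 of 9 specific granule genes and 6 of 6 proliferation genes tested were higher, and 6 of 8 late genes were lower. The filter took both sides together here as well, so genes near 0 on one side entered through the other.

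For the azurophil genes themselves, only 2 neutrophil-like cells of replicate 2 held any, which is too few to test, so values are given alone. In the 6 holding cells of replicate 1 Fcnb averaged 2583 TPM against 161 TPM in the other 128, and in the 2 of replicate 2 it averaged 2026 against 161 TPM in the other 154. Mki67 averaged 162 against 5.13 TPM and 224 against 6.13 TPM. Both were higher in the holding cells of both replicates. Camp averaged 37401 against 13380 TPM and 17277 against 12713 TPM. Cebpe was above 0 in 6 of the 8 cells and in 70 of the other 282, Ms4a3 in 5 and 12, Prss57 in 5 and 22, and Kit in 4 and 25. Csf1r, the receptor for the macrophage growth factor, and Irf8 were at 0 in all 8.

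In the monocyte-like cells, where the holding cells numbered 8 against 12 in replicate 1 and 3 against 13 in replicate 2, the same comparison was made after most such cells had been seen to lie there. The cells without an azurophil gene included all 4 with 3 or more B cell markers, so the classes also differed in kind of cell. Of 7147 genes tested, 0.014% were higher (1) and 0.056% lower (4). Fcnb averaged 254 against 0 TPM in replicate 1 and 88.8 against 36.9 TPM in replicate 2 (4.62 ± 1.83 SE, adjusted p = 0.843, limma). Mki67 averaged 161 against 8.13 TPM and 49.0 against 17.9 TPM (2.78 ± 1.44, adjusted p = 0.879, limma). Ccr2 averaged 465 against 306 TPM and 667 against 484 TPM (0.53 ± 0.45, adjusted p = 0.879, limma). None of these 3 differences passed. The gene that rose was Hist1h2ao (4.47 ± 0.50, adjusted p = 0.00451, limma), and none of the 18 proliferation genes tested passed (median 1.95, against -0.25 over all genes). The holding cells had more genes above 0, and with cells matched on that number no gene passed (316 genes at an unadjusted p under 0.05, limma).

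The genes most like Fcnb over the 326 cells, by Pearson r of plate-centred log2(TPM + 1) among 8905 genes above 0 in at least 10 cells, were Ms4a3 (r = 0.66), Orm1 (0.62), Chi3l4 (0.61), Ccnb2 (0.59), Olr1 (0.59) and Igfbp4 (0.58). Those most like the mean of the 4 azurophil genes, out of 8905, were Dut (0.66), Ezh2 (0.61), Apitd1 (0.60), Lig1 (0.60), Gpx3 (0.59) and Mcph1 (0.59). Dut and Lig1 act in DNA synthesis and Ezh2 in chromatin silencing. The cells share plates and differ in genes detected, so these values are descriptions. Without the highest cell, Dut, Ezh2 and Lig1 kept their ranks of 1, 2 and 4, and Mcph1 went to rank 92. Among the 5 genes, r was 0.75 between Mpo and Ctsg, 0.67 between Mpo and Elane, 0.66 between Elane and Prtn3 and 0.39 between Fcnb and Prtn3. With Mki67, r was 0.55 for Prtn3, 0.51 for Fcnb and 0.47 for Elane. With Camp it was 0.35 for Fcnb and between -0.09 and 0.00 for the azurophil genes.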

How the data were processed

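RNA was measured in single cells of mouse spinal cord. The authors deposited TPM values of 23420 genes in each cell. RSEM and mm10 are named in the submitters' processing notes; no aligner, annotation or version is given in the sources used here. Whether reads were counted by strand, and how reads of near-identical genes were shared, is not stated either. The number of cells with a TPM above 0 sets the precision, since depth is unknown. No cell fell below 500 genes above 0, and no doublet caller was run. Clusters came from scanpy 1.11.5 under Python 3.11.15 (Leiden, resolution 0.5, 15 neighbours, 20 components), after keeping the 2000 genes that varied most in log2(TPM + 1) and centring them on each plate's mean. A cluster was named from the marker list with the highest mean in it if at least 3 of its genes were above 0 in 25% of its cells. Exact binomial intervals came from scipy 1.17.1.

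Comparisons used limma 3.58.1 (R 4.3.3; trend, robust) on log2(mean TPM + 1) of 2 classes of cells in 2 replicates, with the replicate as a block, since both classes come from the same replicate, and Benjamini-Hochberg adjustment at 0.05 over all genes tested. Genes were tested where 10% of cells were above 0 and TPM averaged 5 or more; the 5 genes, Mki67, Camp and Ccr2 were kept in any case. A class needed at least 3 cells per replicate. Cells are not replicates. The p-values set a class difference against its variation between the 2 replicates and a spread pooled over genes. That variation may be technical. The fits were also run on simulated averages with normal noise. Log2 differences of 1 were recovered in 25.4% to 37.3% of cases, those of 2 in 77.6% to 89.6% and those of 4 in 100%. Means that rest on 1 cell or on many zeros were not simulated, so these runs do not bear on the azurophil genes. The genes, lists and comparisons were chosen with earlier results of these data known. Genes named beyond the lists were the 8 with the largest and 4 with the smallest log2 difference among those past the threshold with 1 sign on every plate, and the 6 with the most similar pattern. For the main results, no fold is given where a class is listed at 0 in both replicates. The section on processing does give such differences, and their size depends on the pseudocount. Folds on the log2(mean TPM + 1) scale understate changes of low genes. The alternatives were other pseudocounts, filters, averages, cell gates and depth matching, no replicate block, each replicate left out, Rn45s left out, and, added after seeing the data, the highest cell left out. Protein sequences were not used here.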

Additional observations from a re-analysis of the deposited data

Results flagged for a closer look

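Of 13 groups of 4 to 10 values tested for a value apart from the rest, 4 had one. Chance alone flags about 1 in 20 where values are normally distributed and groups are independent. TPM values are skewed and these groups share cells, so that rate does not apply here. The mean TPM of Mpo by plate was highest on plate 2 at 415 TPM, against 28.1 TPM on the nearest plate. The mean TPM of Prtn3 was highest on plate 2 as well, at 503 TPM against 52.2 TPM. Among the 9 cells with Elane above 0, the highest was at 50794 TPM and the next at 16034 TPM. Among the 5 cells with Ctsg above 0, the highest was at 11799 TPM and the next at 1574 TPM. The same cell of plate 2 gave all 4 of these values. Of the 14 cells with values in the same row or column of its plate, 0 held an azurophil gene, and 6 of the other 62 did. For the highest monocyte-like cell on plate 1, 3 of 12 such cells did, against 3 of the other 64. Transfer of reads between wells was not tested.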

How the results depend on the processing

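The shares of cells with each of the 5 genes, and with any azurophil gene, moved by less than their intervals with a minimum TPM of 1 or 10 and with at least 1000 genes. Leaving out a replicate took the share with any azurophil gene to 2.91% and 9.09%, and the 8 neutrophil-like cells with an azurophil gene were the same number at clustering resolution 1.0 and without plate centring. Counts of genes called depended more on the processing. With cells split by Mki67, 0 genes passed; 60 did with a pseudocount of 10, 806 with means of log2 values, 27 with averages per plate, 29 with no replicate block, 165 with all kept cells, 243 with cells of at least 5 neutrophil markers and 8 with depth-matched cells. With cells split by Camp, 886 passed, against 0 with no filter on low values, 1911 with means of log2 values and 508 with depth-matched cells. With cells split by Fcnb, 789 passed, against 447 with a pseudocount of 0.1, 0 with no filter, 1726 with means of log2 values and 312 with depth-matched cells. Without a filter 1523 and 1760 genes had an unadjusted p under 0.05 (limma) in these 2 splits. In the monocyte-like cells 5 passed, against 2, 15, 9, 12, 20, 3, 2 and 0 with a pseudocount of 0.1, a pseudocount of 10, no filter, the stricter filter, means of log2 values, averages per plate, no replicate block and depth-matched cells, and 9 without the cell of mast cell or basophil markers. Means of log2 values moved the median of all genes from -0.27 to 0.53 (Mki67), from -0.25 to 0.44 (Camp) and from -0.36 to 0.61 (Fcnb), and the split by Fcnb from 185 higher and 604 lower to 1339 and 387.

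With cells split by Mki67, the log2 difference of Fcnb passed at 3.52 (pseudocount of 10), 4.81 (means of log2 values), 3.81 (averages per plate), 3.64 (no replicate block), 3.36 (all kept cells), 3.54 (at least 5 neutrophil markers) and 2.19 (depth-matched). Elane passed at 1.40 (means of log2 values), 9.10 (all kept cells) and 9.15 (at least 5 markers), and Prtn3 at 1.61 (means of log2 values) and 8.15 (at least 5 markers). With cells split by Camp, Fcnb passed at 3.88 (pseudocount of 10), 2.48 (means of log2 values), 6.88 (averages per plate), 4.58 (all kept cells), 6.13 (at least 5 markers) and 8.70 (without the highest cell, the only one with any of the 5 genes on the low side, so this value and its call are fixed by the removal). There the differences of the azurophil genes changed sign, for Mpo to 1.90 (all kept cells) and 4.40 (at least 5 markers), and for Ctsg to 0.45 and 1.80. For Elane they turned to 0.71 (pseudocount of 0.1), 0.12 (means of log2 values), 0.36 (averages per plate), 0.48 (all kept cells), 4.44 (at least 5 markers) and 3.92 (without the highest cell, fixed likewise), and for Prtn3 to 0.43, 0.23, 0.45, 1.45, 3.02 and 3.47 under the same alternatives. With cells split by Fcnb, Elane and Prtn3 lost their calls at 5.41 and 4.92 (pseudocount of 10) and at 8.62 and 7.92 (no filter), and Ctsg passed at 3.66 (all kept cells) and 4.51 (at least 5 markers). Among cells split by an azurophil gene, that of Fcnb moved from 3.82 to 9.21 (means of log2 values), 2.79 (all kept cells), 3.36 (at least 5 markers) and 1.49 (depth-matched). The difference of Ccr2 changed sign to 0.42 (Mki67 split) and 0.49 (Fcnb split) with all kept cells, and in the Camp split to -0.029 (means of log2 values), -6.46 (all kept cells) and -4.81 (at least 5 markers); Sh3bgrl turned to -0.24 (all kept cells). Sets with all kept cells or at least 5 neutrophil markers include monocyte-like cells; the cause of the other changes was not tested. Leaving out a replicate leaves no residual degree of freedom, so these are values with no test: Elane went from -5.60 to 3.87 in the Camp split and from 5.83 to 11.4 in the Fcnb split, and Prtn3 from -5.50 to 3.29 and from 5.21 to 10.6. The replicate block changed the call of Fcnb in the Mki67 split alone among the 5 genes. The comparison of neutrophil-like cells by azurophil genes could be fitted only with averages per plate (1103 genes passed), all kept cells (312) and at least 5 neutrophil markers (60).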

Other observations

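Precursor genes outside the azurophil set were spread differently over the cells with Fcnb. Prss57, which is stored with the azurophil proteases, was above 0 in 13 of 38 neutrophil-like cells with Fcnb and in 14 of 252 without. Kit was above 0 in 8 and 21. The granule protein Bpi, bactericidal/permeability-increasing protein, was at 0 in all 326 cells. Nkg7 and Cst7, better known from cytotoxic lymphocytes, were above 0 in 5 and 2 of the 8 neutrophil-like cells with an azurophil gene, and in 3 and 1 of the other 282. Nkg7 was highest among the 8 in the cell with the highest azurophil values, at 4568 TPM.

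Serpinb1a, an inhibitor of the azurophil proteases, was above 0 in 7 of those 8 cells at a mean of 1088 TPM, and in 118 of the other 282 at a mean of 379 TPM. Srgn was in 5 of the 8 at a mean of 346 TPM, and in 238 of the other 282 at a mean of 3739 TPM. These are counts and means over cells of both replicates, with no test.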
